A study of Mus musculus with 5 samples.

Results

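The genes described here are 5 fibroblast growth factor (FGF) ligands and 3 FGF receptors with known parts in the hair growth cycle: *Fgf5*, *Fgf7*, *Fgf10*, *Fgf18*, *Fgf22*, *Fgfr1*, *Fgfr2* and *Fgfr3*. They were read from every probe set that the platform annotation assigns to 1 of them alone, which gave 16 of the 45101 probe sets on the array, 8 for ligands and 8 for receptors. A probe set is a group of short probes read as 1 value, and several of these genes have more than 1. Dorsal skin was profiled from 2 *Clock* mutant mice and 3 wild-type (WT) littermates at postnatal day 23, on a C57BL/6J background, with 1 Affymetrix array per mouse. The *Clock* allele is a germline mutation that all cells of the mutant mice carry, and the labels do not give the number of mutant copies. Follicles of all 5 mice were staged as telogen, the resting phase, by histology. Of the 5 mice, 4 were female and the remaining 1, *Clock* mutant replicate 1, was male. The time of day of sampling is not given in the sources used here. The comparison asks whether these signalling genes differed between the genotypes in skin staged as telogen.

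FGF ligands are secreted proteins that bind heparan sulfate and tyrosine kinase receptors on the cell surface and act through the RAS and MAP kinase cascade. In skin, FGF7 and FGF10 are made by mesenchymal cells such as the dermal papilla and act on the epithelial form of FGFR2, which lets the dermis signal to the hair germ. FGF18 is made in the resting follicle and holds it in telogen, FGF22 belongs to the same subfamily as FGF7 and FGF10, and FGF5 ends the growth phase, so that mice without it grow long hair.

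The values were MAS5 signal intensities, and all differences are *Clock* mutant minus WT on the log2 scale. Median intensities of the 5 arrays lay between 105.8 and 117.9. As a check of the labels, *Per3*, a clock gene that CLOCK activates, had intensities of 196 and 247 in *Clock* mutant skin against 815, 676 and 591 in WT skin (limma adjusted p = 0.0144). *Dbp*, also planned for this check, had 219 and 239 in *Clock* mutant skin against 815, 462 and 492 in WT skin. It did not pass the adjusted threshold of 0.05 (limma adjusted p = 0.115). Of 10 clock output genes tested, 8 were lower and 1 higher at an unadjusted p under 0.05, and 2 were lower after adjustment. The 1 higher was *Nr1d1*, also a CLOCK target, with 467 and 428 in *Clock* mutant skin against 308, 259 and 289 in WT skin (adjusted p = 0.2), named after its values were seen. All listed markers of fibroblasts, epidermis, skin muscle and endothelium had mean intensities above the filter given below. So did 5 of 6 of fat, and the other, *Plin1*, had no probe set annotated to it alone. As whole skin was measured, fewer cells of a type cannot be told apart from less RNA per cell. Genes of the growing hair shaft and inner root sheath had their highest summed level in *Clock* mutant replicate 1, while *Clock* mutant replicate 2 summed within the WT range. These are genes of growing follicles, although all 5 mice were staged as telogen. Whether some follicles had begun to grow was not tested. The 11 of 14 markers that could be tested summed to intensities of 8356 and 2140 in *Clock* mutant replicates 1 and 2, against 2173, 1220 and 1338 in WT skin. Of the 11, 7 were higher at a limma unadjusted p under 0.05, against 5.24% of all genes tested, and 0 after adjustment (median difference 1.54). At 4 of the 11, *Krt28*, *Krt73*, *Tchh* and *Krt31*, both mutants lay above all WT mice, against 12.8% of all probe sets tested. *Msx2* (0.13), *Dlx3* (-0.0032), *Foxn1* (-0.052) and *Hoxc13* (0.23) had small differences with overlapping groups. None of the 11 was at 0, and the lowest value was 34.3 for the root sheath keratin *Krt25*. Results were also computed without *Clock* mutant replicate 1. That comparison is of females alone, but it leaves 1 mutant mouse, so the spread between mutants cannot be seen in it.

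No FGF ligand or receptor changed past the adjusted threshold of 0.05 in *Clock* mutant skin. The clearest difference was in *Fgfr1*, which was lower at 1 of its 3 probe sets by 0.43, with the groups apart. *Fgf7* had a smaller negative difference at 1 of 2 probe sets. *Fgf18* and *Fgfr3* had positive differences with overlapping groups, and *Fgf5* was near the bottom of the intensity scale. Of the 16 probe sets, 11 had a mean intensity above the filter of 56.7 and were tested among 27022 probe sets, and 5 lay below it. These 11 covered 6 of the 8 genes, and *Fgf5* and *Fgf10* had none.

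By limma, 0 of the 11 passed the adjusted threshold, against 0.0888% of all probe sets tested (0.0148% higher and 0.074% lower). At an unadjusted p under 0.05 there were 2 (18.2%), both lower, against 10.8% of all probe sets, of which 4.09% were higher and 6.71% lower. A Cyber-T style test, which also shrinks each variance towards that of probe sets of like intensity, gave 0 at the adjusted threshold and 1 at an unadjusted p under 0.05. The groups did not overlap at 4 of the 11 (36.4%), all lower in *Clock* mutant skin, against 27.9% of all probe sets (12.8% higher and 15.1% lower). With 11 probe sets that share genes, these shares are a description. The differences of the 11 ran between -0.43 and 0.36, with a median of -0.15, against a median of -0.017 over all probe sets tested, and their standard errors (SE) lay between 0.076 and 0.25. The sign was negative at 8 of the 11 (72.7%), against 53.5% of all probe sets, and at 6 of the 11 with each array centred on its median.

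**Figure D1:**
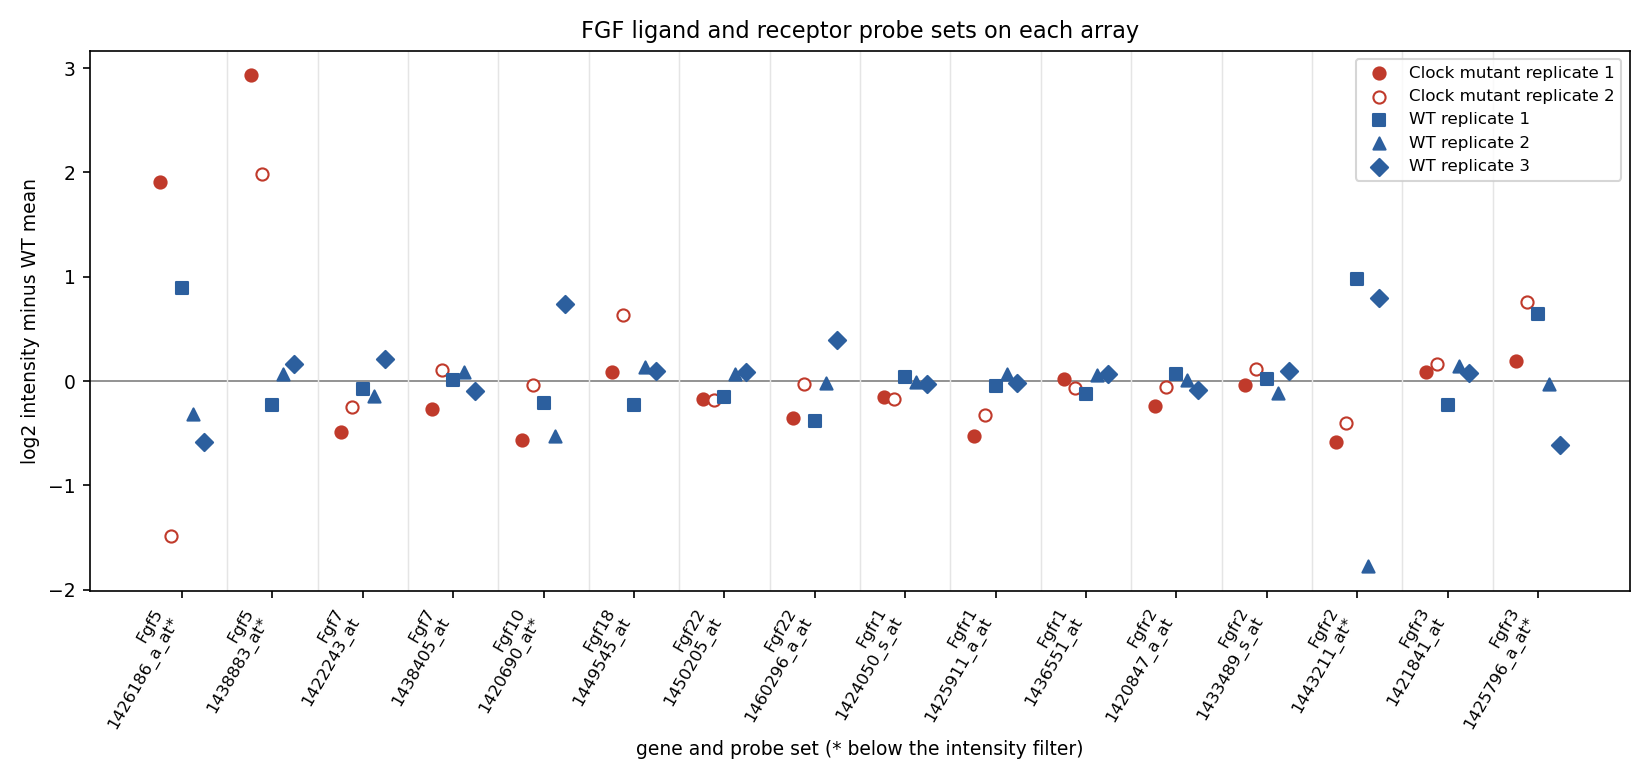
Log2 intensity of each array minus the WT mean of that probe set (vertical axis) for the 16 FGF probe sets (horizontal axis); red circles are *Clock* mutant arrays (filled, replicate 1), blue symbols are WT arrays, and asterisks mark the 5 probe sets below the filter. Both *Clock* mutant arrays lie below all WT arrays at 4 probe sets, 2 of them for *Fgfr1*, and the widest scatter is at the dim *Fgf5* and *Fgfr2* probe sets.

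Among the receptors, *Fgfr1* encodes the form found mainly in dermal and other mesenchymal cells of skin. At probe set 1425911_a_at its intensity was 2002 and 2297 in *Clock* mutant skin, against 2782, 3014 and 2856 in WT skin. Both mutant mice lay below all 3 WT mice, by more than the spread within either group. The means were 2149 ± 209 (SD, n = 2) in *Clock* mutant and 2884 ± 119 (SD, n = 3) in WT skin. The difference was -0.43 (SE 0.09, 95% interval -0.63 to -0.22, unadjusted p = 0.00105, limma adjusted p = 0.186). It was -0.33 without *Clock* mutant replicate 1 and was negative in all 14 alternatives. In every alternative that kept both mutants the unadjusted p was under 0.05, with adjusted p between 0.109 and 0.703.

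The other *Fgfr1* probe sets gave smaller values. At 1424050_s_at the intensity was 2615 and 2578 in *Clock* mutant skin, against 2977, 2880.3 and 2849 in WT skin. The groups were again apart, with a difference of -0.16 (SE 0.076, adjusted p = 0.482) that was -0.072 with median centring. At 1436551_at the intensity was 415 and 392 in *Clock* mutant skin, against 375, 427 and 429 in WT skin, and the groups overlapped. Its difference of -0.022 (95% interval -0.32 to 0.27) was 0.066 with median centring. The mean of the 3 probe sets differed by -0.20 (unadjusted p = 0.031, adjusted p = 0.542 over the genes so averaged). In the suffixes used by the manufacturer, _a_at marks probes shared by alternative transcripts of 1 gene, _s_at probes that may also match other transcripts, and _at probes to a single one.

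To see whether the *Fgfr1* probe sets differed from each other, the log2 ratio of a pair was compared between the genotypes. This comparison was not among those planned, and it covered all 6 pairs of tested probe sets within a gene. The ratio of 1425911_a_at to 1436551_at, set to a WT mean of 0, was -0.55 and -0.26 in *Clock* mutant skin and 0.08, 0.0059 and -0.08 in WT skin. The mean difference was -0.40 and the groups were apart. The two-sided permutation p used here doubles the one-sided value, so it cannot fall below 0.2 with 2 mice against 3. That value was reached (exact permutation p = 0.2, adjusted p = 0.4 over the 6 pairs). The other *Fgfr1* pairs were also apart, at the same permutation p. Their differences were 0.27 (1424050_s_at to 1425911_a_at) and -0.14 (1424050_s_at to 1436551_at). The pairs of *Fgf7*, *Fgf22* and *Fgfr2* overlapped between the genotypes, with differences of -0.29, 0.02 and -0.19. Dermal fibroblast markers, 6 of 6 tested, summed to 107752 and 103970 in *Clock* mutant skin, against 105328, 104336 and 114120 in WT skin, and none of the 6 had groups apart. Fat markers, 5 of 6 tested, summed to 36544 and 32296 in *Clock* mutant skin, against 36042, 37416 and 40907 in WT skin. Among them *Fabp4* (-0.18) and *Cidec* (-0.36) were lower with the groups apart, against 15.1% of all probe sets tested. No fat marker was higher with the groups apart, and none passed the adjusted threshold. The part of either cell type in the *Fgfr1* values was not tested.

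**Figure D2:**
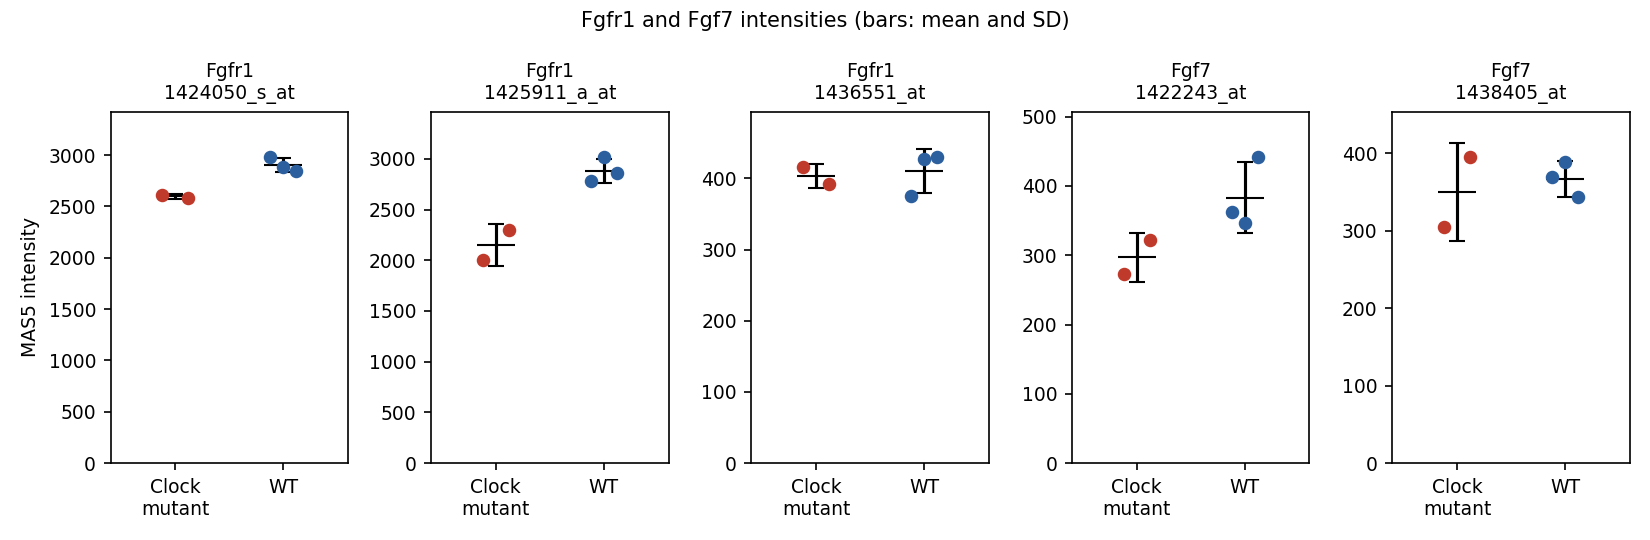
MAS5 intensity (vertical axes, from 0 and differing between panels) of 3 *Fgfr1* and 2 *Fgf7* probe sets; points are single mice, horizontal marks are group means and bars are SD, with *Clock* mutant (n = 2, red) left of WT (n = 3, blue). The groups are apart at *Fgfr1* 1425911_a_at, with means of 2149 and 2884, and overlap at *Fgfr1* 1436551_at, with means of 404 and 410.4.

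*Fgfr2*, the receptor through which FGF7 and FGF10 act on keratinocytes, showed no difference beyond the spread between mice. At 1420847_a_at the intensity was 1562 and 1771 in *Clock* mutant skin, against 1941, 1860.4 and 1746 in WT skin. *Clock* mutant replicate 1 was the lowest of the 5, and replicate 2 lay within the WT range, so the groups overlapped. The difference was -0.15 (95% interval -0.37 to 0.06, adjusted p = 0.589), and it was -0.061 without *Clock* mutant replicate 1 and -0.063 with median centring. At 1433489_s_at it was 3334 and 3698 in *Clock* mutant skin, against 3455, 3156 and 3659 in WT skin, a difference of 0.039 (95% interval -0.17 to 0.24, adjusted p = 0.905) that was 0.13 with median centring. The third probe set, 1443211_at, was below the filter at 16.4 and 18.6 in *Clock* mutant skin, against 48.4, 7.17 and 42.6 in WT skin. WT mice alone spanned the mutant values there. The mean of all 3 probe sets gave -0.20 (SE 0.268).

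*Fgfr3*, which restrains growth of cartilage and whose activating mutations thicken the epidermis, had an intensity of 1913 and 2015 in *Clock* mutant skin, against 1541, 1991 and 1907 in WT skin (1421841_at). WT replicate 1 was the lowest of the 5 and the other 4 mice were close to each other. The difference was 0.12 (95% interval -0.14 to 0.39, adjusted p = 0.732), and it was 0.011 without WT replicate 1 and 0.21 with median centring. The second probe set, 1425796_a_at, was below the filter at 38.4 and 57.0 in *Clock* mutant skin, against 52.4, 33.1 and 21.9 in WT skin, with overlapping groups. Markers of the epidermis between follicles, 7 of 7 tested, summed to 89269 and 90256 in *Clock* mutant skin, against 89670, 81977 and 91344 in WT skin, and those of the bulge and hair germ, 8 of 8, to 30818 and 31719 in *Clock* mutant skin, against 32397, 31642 and 32770 in WT skin. Over all probe sets tested, 27.9% had groups apart, 12.8% higher and 15.1% lower. Single markers had groups apart in both lists, with none past the adjusted threshold. *Krt5* and *Krt1* were higher and *Flg* lower in the epidermis, and *Cd34* and *Cdh3* were lower in the bulge and hair germ. Their part in the values of *Fgfr2* and *Fgfr3* was not tested.

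Among the ligands, *Fgf7*, keratinocyte growth factor, was read by 2 probe sets. At 1422243_at the intensity was 272 and 321 in *Clock* mutant skin, against 362, 346 and 441 in WT skin. Both mutants lay below all WT mice, but *Clock* mutant replicate 2 and WT replicate 2 were close. The difference was -0.37 (SE 0.159, 95% interval -0.72 to -0.01, unadjusted p = 0.0464, adjusted p = 0.457), and the unadjusted p was under 0.05 in 6 of 14 alternatives. It was -0.25 without *Clock* mutant replicate 1 and -0.26 without WT replicate 3, with an unadjusted p of 0.159 for the latter. At 1438405_at the intensity was 305 and 394 in *Clock* mutant skin, against 369, 388 and 343 in WT skin. The mutants spanned the WT range here, with a difference of -0.078 (95% interval -0.43 to 0.27), which was 0.010 with median centring and 0.11 without *Clock* mutant replicate 1. The mean of both gave -0.22 (adjusted p = 0.702).

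*Fgf10*, the other mesenchymal ligand of FGFR2, was below the filter. Its intensity was 37.6 and 54.3 in *Clock* mutant skin, against 48.3, 38.7 and 93.2 in WT skin (1420690_at). WT replicate 3 was the highest, and the other 4 mice overlapped. The difference was -0.30 (SE 0.459) and was 0.066 without WT replicate 3, so that its direction rested on that array. Dermal papilla markers, of which 7 of 8 could be tested, summed to 3005 and 2948 in *Clock* mutant skin, against 2982, 2336 and 2334 in WT skin, with *Sox2* the dimmest at a lowest value of 64.5. Among the 7, *Wif1* was at -0.50 (adjusted p = 0.35) and *Sox18* at 0.38 (adjusted p = 0.416), both with the groups apart, against 27.9% of all probe sets tested. Their part in the values of *Fgf7* and *Fgf10* was not tested.

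*Fgf18*, the ligand of the resting follicle, had an intensity of 135 and 198 in *Clock* mutant skin, against 109, 140.0 and 136 in WT skin (1449545_at). Only *Clock* mutant replicate 2 lay above the WT range. The difference was 0.36 (SE 0.232, 95% interval -0.17 to 0.88, adjusted p = 0.6), and it was 0.63 without *Clock* mutant replicate 1 and 0.084 without *Clock* mutant replicate 2. The direction was positive in all 13 alternatives that kept this probe set, while its size turned on 1 mouse.

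*Fgf22*, known in the mouse follicle from the inner root sheath, had an intensity of 196 and 245 in *Clock* mutant skin, against 192, 247 and 328 in WT skin at 1460296_a_at. The groups overlapped, with a difference of -0.19 (95% interval -0.71 to 0.33, adjusted p = 0.792) that was 0.0056 without WT replicate 3. At 1450205_at it was 70.1 and 69.2 in *Clock* mutant skin, against 70.6, 82.7 and 83.5 in WT skin. The groups were just apart, and the difference of -0.18 (SE 0.248, adjusted p = 0.828) was smaller than its error and was -0.062 with quantile normalization.

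*Fgf5*, which is produced late in the growth phase, was near the bottom of the intensity scale at both of its probe sets. At 1438883_at it was 24.8 and 12.8 in *Clock* mutant skin, against 2.77, 3.40 and 3.63 in WT skin. Both mutants were above all WT mice, yet every value was below the filter of 56.7. In the fit without a filter the difference was 2.46 (SE 0.751, unadjusted p = 0.0104, adjusted p = 0.468). Among all 18015 probe sets below the filter, 20.2% had groups apart, 6.89% higher and 13.3% lower, and 5.18% had an unadjusted p under 0.05. With 32 added to each intensity the difference was 0.52, and without *Clock* mutant replicate 1 it was 1.98. At the second probe set, 1426186_a_at, the intensity was 19.2 and 1.82 in *Clock* mutant skin, against 9.48, 4.12 and 3.41 in WT skin. *Clock* mutant replicate 1 was the highest and replicate 2 the lowest of the 5, and the difference of 0.21 was -1.49 without *Clock* mutant replicate 1. The mean of both probe sets differed by 1.33 (adjusted p = 0.714). At both probe sets the highest value was on the array whose hair shaft and root sheath markers summed to 8356. The part of that array's markers in the *Fgf5* values was not tested.

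**Figure D3:**
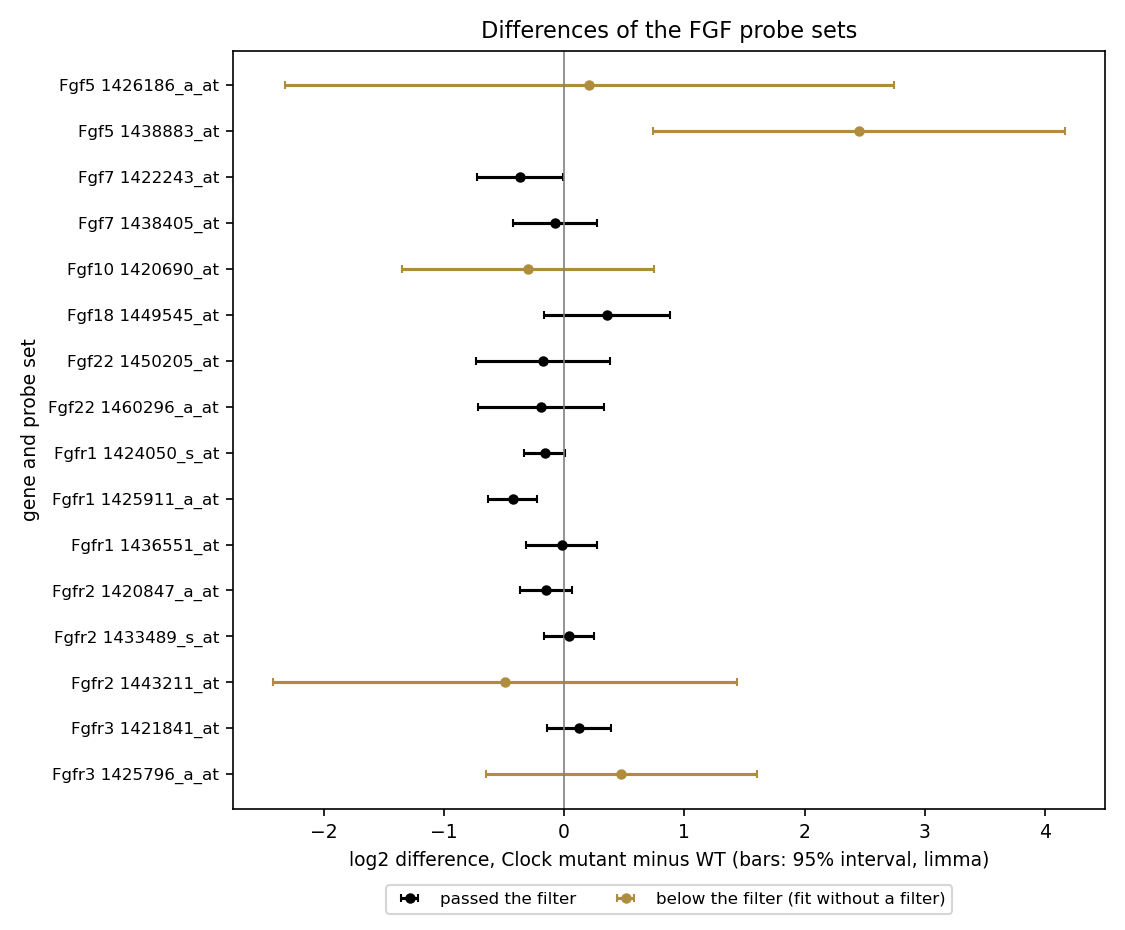
Log2 difference, *Clock* mutant (n = 2) minus WT (n = 3), of the 16 FGF probe sets (horizontal axis) with 95% intervals from limma; black points passed the filter and brown points, from the fit without a filter, did not. Only *Fgfr1* 1425911_a_at and *Fgf7* 1422243_at among the black intervals exclude 0, and the brown interval of *Fgf5* 1438883_at runs between 0.74 and 4.17.

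CLOCK and BMAL1 activate genes through the E-box, CACGTG, which reads the same on both strands. These letters were searched for in RefSeq promoter windows of assembly GRCm38.p6, each of 300 bases, 250 before the annotated start and 50 after it. A table entry was matched for 7 of the 8 genes, with 8 windows. The E-box was present in 1 of the 8, that of *Fgfr2*, and in 7.15% of 32851 windows of all genes. The E′-box, searched as CACGTT and its reverse complement AACGTG, was in 0 of the 8 and in 4.68% of all windows. *Fgfr1* is not among the 7. The *Fgfr2* match begins at base 29 after the start, and the 30 bases around it (minus strand, chr7:130266763-130266792, E-box in capitals) are shown with the 250 bases before the starts of *Fgf7* (plus strand, chr2:126034408-126034657) and *Fgf5* (plus strand, chr5:98253934-98254183). The last 2 are the ligands with a probe set at an unadjusted p under 0.05, and neither holds capitals as neither holds such a box.
Fgfr2: caattacctattCACGTGttcccttcctaa
Fgf7: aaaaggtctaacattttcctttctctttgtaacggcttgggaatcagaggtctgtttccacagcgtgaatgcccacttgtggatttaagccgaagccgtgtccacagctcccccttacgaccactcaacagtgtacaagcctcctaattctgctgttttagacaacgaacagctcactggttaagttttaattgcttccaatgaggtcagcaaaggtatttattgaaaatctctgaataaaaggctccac
Fgf5: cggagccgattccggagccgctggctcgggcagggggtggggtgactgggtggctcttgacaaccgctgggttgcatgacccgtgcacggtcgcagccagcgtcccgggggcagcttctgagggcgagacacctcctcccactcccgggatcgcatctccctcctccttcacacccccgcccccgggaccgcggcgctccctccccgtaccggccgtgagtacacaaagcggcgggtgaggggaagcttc
A match describes the letters of these windows and is not a binding site.

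The rest of the FGF pathway was read from 5 lists with 69 genes, of which 44 had a probe set above the filter, the brightest standing for the gene. None passed the adjusted threshold by limma or by the Cyber-T style test. At an unadjusted p under 0.05 limma gave 3 higher and 1 lower (9.09% of 44), against 10% of the 12955 genes with a probe set above the filter (5.24% higher and 4.78% lower), and the Cyber-T style test gave 3 in all. The limma count was 6 without WT replicate 1 and 4 without WT replicate 2 or WT replicate 3. The median difference over the 44 genes was -0.030, against 0.02 over all genes.

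Few other ligands were bright enough to test, with 2 of 13. *Fgf1*, which binds all FGF receptors, had an intensity of 572 and 675 in *Clock* mutant skin, against 516, 559 and 532 in WT skin, a difference of 0.21 (adjusted p = 0.553) with the groups apart. *Fgf9* was at -0.06 and overlapped. Of 4 intracellular FGF homologous factors, which stay in the cell and bind sodium channels, *Fgf13* (-0.07) and *Fgf11* (-0.06) were tested and did not pass at any threshold.

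Of 16 other receptors, co-receptors and binding proteins, 15 were tested, with 1 higher and 1 lower at an unadjusted p under 0.05. *Gpc4*, a heparan sulfate proteoglycan of the cell surface, had an intensity of 3169 and 2927 in *Clock* mutant skin, against 2391, 2650.4 and 2441 in WT skin. Its groups were apart, with a difference of 0.29 (SE 0.085, adjusted p = 0.316). *Flrt3*, a membrane protein that binds FGF receptors in *Xenopus*, had a difference of -0.40 (SE 0.169, adjusted p = 0.444) with overlapping groups. *Gpc1*, another glypican, was at -0.20 (adjusted p = 0.5).

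Of 23 signal transducers, 16 were tested, with 2 higher and 0 lower at an unadjusted p under 0.05. *Pik3ca*, the catalytic subunit of PI3 kinase, had an intensity of 1859 and 1816 in *Clock* mutant skin, against 1437, 1590.3 and 1543 in WT skin, a difference of 0.27 (SE 0.088, adjusted p = 0.364). *Ptpn11*, the phosphatase SHP2 that links receptors to RAS, was at 0.20 (SE 0.084, adjusted p = 0.447) and *Pik3r1*, a regulatory subunit of PI3 kinase, at -0.15 (adjusted p = 0.51).

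Of 13 feedback inhibitors and target genes of FGF signalling, 9 were tested and none had an unadjusted p under 0.05. Their median was -0.06, with 6 negative and 3 positive differences. *Spred1*, an inhibitor of RAS activation, had an intensity of 839 and 838 in *Clock* mutant skin, against 998, 1057 and 891 in WT skin, a difference of -0.23 (SE 0.108, adjusted p = 0.488). *Il17rd*, an inhibitor at the receptor, was at -0.21 (adjusted p = 0.646) and *Etv5*, a transcription factor induced by FGF, at 0.22 (adjusted p = 0.749).

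**Figure D4:**
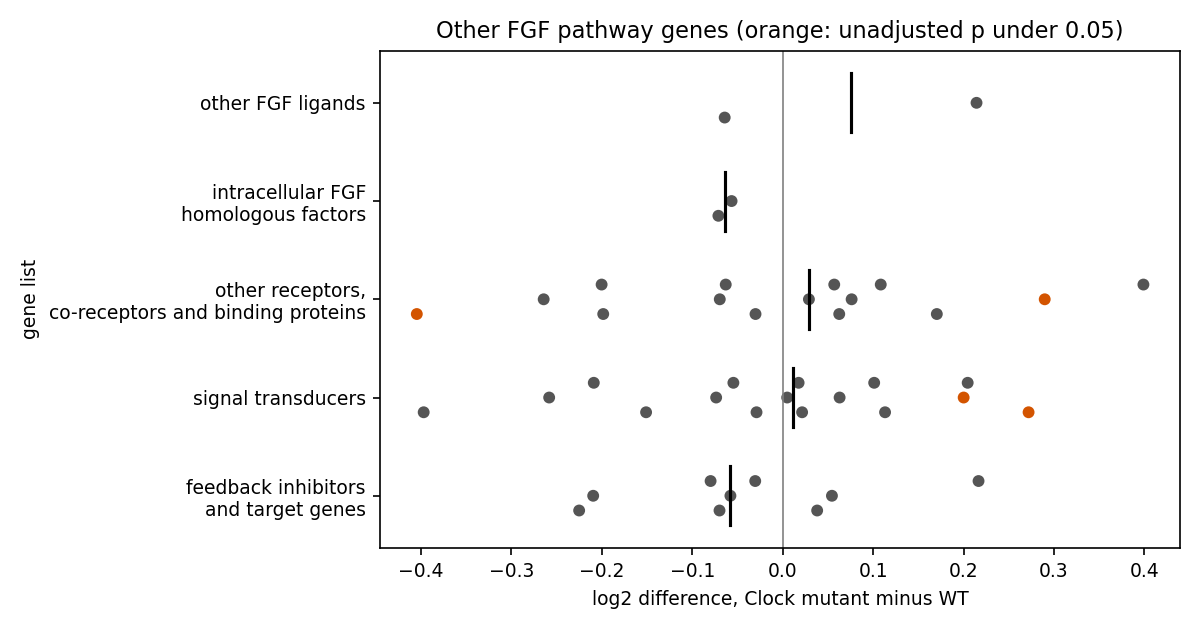
Log2 difference, *Clock* mutant (n = 2) minus WT (n = 3), of 44 other FGF pathway genes (horizontal axis) in 5 lists (vertical axis, with points spread for legibility); black bars are list medians and orange points have an unadjusted p under 0.05. The 4 orange points are *Flrt3* on the left and *Ptpn11*, *Pik3ca* and *Gpc4* on the right, and no point passed the adjusted threshold.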

How the data were processed

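Each mouse gave 11 µg of total RNA for 1 Affymetrix mouse expression array, hybridised as biotinylated cRNA. The authors deposited linear signal intensity per probe set, made with MAS5 per the labels, and all arrays had been scaled to a trimmed mean of 500. Detection calls were not used here. Genes were named from the platform annotation, with 34945 of 45037 probe sets, other than 64 controls, having 1 symbol.

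A floor of 1 replaced 2441 lower intensities before the log2 transform. The filter dropped 18015 probe sets with a mean below the 40th percentile, which left 27022 for testing with limma 3.58.1 in R 4.3.3 (lmFit, eBayes with an intensity trend, two-sided, Benjamini-Hochberg over all tested). The study's methods state no test for these arrays. Members below the filter were taken from the fit without a filter. The step was tested on simulated data. It called 8.5% of probe sets given a log2 difference of 0.5 and 45.8% of those given 1. The shares were 70.8% at 1.5 and 84% at 2, with 2.65 false calls per run. The 11 tested FGF probe sets lay between -0.43 and 0.36, which is inside the smallest size tried. The labels call the mice biological replicates. The number of arrays limits the precision.

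All members were named at every probe set, with the 3 pathway genes of smallest p per list. Members and lists were chosen with earlier results of these data known. Alternatives covered normalization, filter, log scale, prior, a Cyber-T style test, the replicate number as a block, mean of probe sets and leaving out each array. Protein sequences were not used here.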

Additional observations from a re-analysis of the deposited data

How the results depend on the processing

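No member and no other pathway gene passed the adjusted threshold in any of 14 alternatives. The count of member probe sets at an unadjusted p under 0.05 (2) was 1 with median centring, without a trend in the prior, with the Cyber-T style test and with the replicate block, and 1 to 2 when single arrays were left out. It was 1 without WT replicate 1 or WT replicate 3, and without a filter it was 3, over all 16 probe sets. The count over the pathway lists (4) was 7 without a filter, 2 without a trend, and 2 to 9 when single arrays were left out. The lists' median difference (-0.030) was 0.0029 with quantile normalization, 0.059 with median centring, -0.055 without a filter, 0.011 with a filter at the 60th percentile, and -0.022 to -0.012 when single arrays were left out.

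Of 218 recomputed member values 200 kept their sign and 18 changed it, at probe sets with small differences or low intensity, and 10 of 16 probe sets kept it throughout. With the replicate block, values were -0.081 for *Fgf5* 1426186_a_at, 0.066 for *Fgf10*, 0.0056 for *Fgf22* 1460296_a_at and 0.012 for *Fgfr1* 1436551_at. *Fgfr1* 1436551_at was at 0.018 with quantile normalization and 0.066 with median centring, *Fgf7* 1438405_at at 0.010 with median centring, and *Fgfr2* at -0.20 with the mean of its probe sets. Leaving out single arrays gave -1.49 to 1.91 for *Fgf5* 1426186_a_at, -0.26 to 0.11 for *Fgf7* 1438405_at, -0.57 to 0.066 for *Fgf10*, -0.38 to 0.0056 for *Fgf22* 1460296_a_at, -0.085 to 0.020 for *Fgfr1* 1436551_at and -0.036 to 0.11 for *Fgfr2* 1433489_s_at. The causes were not tested.

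Replicate numbers 1 and 2 are shared by both genotypes, but nothing in the labels says that they pair mice, and deviations of same-numbered arrays correlated at 0.01 and 0.10. Over all probe sets the block gave 106 adjusted calls against 24, the Cyber-T style test 47, no filter 10 and a prior without a trend 0. Leaving out WT replicates 1, 2 and 3 gave 20, 0 and 0. The male mouse was a mutant, so that sex is partly confounded with genotype.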
